A study of Mus musculus with 36 samples.

Results

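E0771 mouse breast cancer cells exposed for 24 h to 40 mM KCl together with 10 µM NS11021 were compared with DMSO-treated cells, over all expressed genes. The comparison rests on the count columns of the 3 KCl+NS11021 libraries and the 3 DMSO libraries, 6 of the 36 libraries of the series, chosen by label alone. E0771 is a mouse line from a mammary adenocarcinoma. NS11021 opens the large-conductance, calcium-activated BK potassium channel, whose pore is encoded by Kcnma1, and KCl raises potassium outside the cell. Each E0771 group held 3 libraries, from cells grown for 24 h in wells before a further 24 h of treatment, and the series concerns MRTFA-SRF gene expression, cell stiffness, calcium and potassium. The single treatments, 40 mM KCl and 10 µM NS11021, served to ask which genes changed by KCl lay nearer to DMSO once NS11021 was present. The labels name no group with another salt or osmolyte at the same strength, so effects of potassium, chloride and osmolarity cannot be told apart. They also do not say whether libraries came from separate cultures, so p-values measure the spread between these libraries, which may be technical.

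Potassium is high inside cells and low outside, and the gradient sets the membrane voltage. Raising potassium outside depolarises cells, while opening potassium channels lets potassium leave and, at a normal gradient, hyperpolarises them; voltage and calcium entry reach transcription through calcium-dependent factors. MRTFA is a coactivator held by actin monomers that enters the nucleus when actin polymerises and there drives genes of contraction and adhesion with its partner SRF. Salt or sugar added to the medium also draws water from cells, a stress answered by the factor NFAT5, which induces carriers of organic osmolytes.

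The E0771 libraries held 31.2 to 47.9 M counts, and 13357 genes were tested. The KCl+NS11021 libraries lay close together on the first 2 principal components, at 26.6 to 28.2 on PC1 and −17.3 to −16.7 on PC2, apart from DMSO (−16.7 to −14.7 and 22.2 to 30). On PC1 they lay between DMSO and KCl (34.3 to 41), and on PC2 they lay beyond NS11021 (−13.4 to −7.65). Mitochondrial transcripts took 0.725% to 0.75% of counts in KCl+NS11021 and 0.626% to 0.72% in DMSO, ranges that do not overlap. The libraries numbered 3 of BMS204352 and KCl+BMS204352, a different compound, stood apart and enter the spread shared by the 18 libraries. Over all genes, the counts that moved back, moved further or had an interaction are given with and without them. Counts for single lists are given without them only for some lists. Kcnma1 was not tested, since its counts were 4, 0 and 0 in DMSO and 2, 0 and 6 in KCl+NS11021. Of 9 markers of breast epithelium, summed CPM (counts per M of library total) was 273 to 277 in DMSO and 216 to 219 in KCl+NS11021; Krt8 and Erbb2 carried it, and Epcam, Krt18, Krt5, Krt14 and Krt19 were at or near 0. Krt8 fell (−0.40 ± 0.05), Erbb2 was at −0.11 ± 0.06, and Esr1 averaged 0.691 CPM in DMSO and 1.26 in KCl+NS11021. In a wider list of 11 tested epithelial markers 1 rose and 1 fell (median 0.43). The leukocyte markers Ptprc, Cd3e, Adgre1 and Itgam were at 0 in both groups. Of 5 tested members of a wider leukocyte list, Cd68 and Csf1r rose, the latter from 0, 0 and 4 counts to 12, 10 and 8, and Lyz2 fell. All 3 tested members of a wider endothelial list rose (median 1.72), and the 4 endothelial markers summed to 0.661 to 1.02 CPM in DMSO and 1.86 to 2.68 in KCl+NS11021. Pecam1 carried this sum, at means of 0.63 CPM in DMSO and 2.05 in KCl+NS11021. Cdh5 had 0, 2 and 0 counts in DMSO and 16, 4 and 2 in KCl+NS11021. Kdr averaged 0.0671 and 0.064 CPM, and Tek went from 12, 0 and 0 counts to 0, 0 and 0. The 5 fibroblast markers summed to 161 to 181 CPM in DMSO and 209 to 225 in KCl+NS11021, carried by the receptors Pdgfra and Pdgfrb, with Dcn and Lum at 0, and the 4 mesenchymal markers, mostly Vim and with Cdh2 at 0, to 3720 to 3830 and 3930 to 4080. The part of these shifts in the results was not tested. In bulk RNA, fewer cells of a kind and less RNA per cell cannot be told apart.

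**Figure D1:**
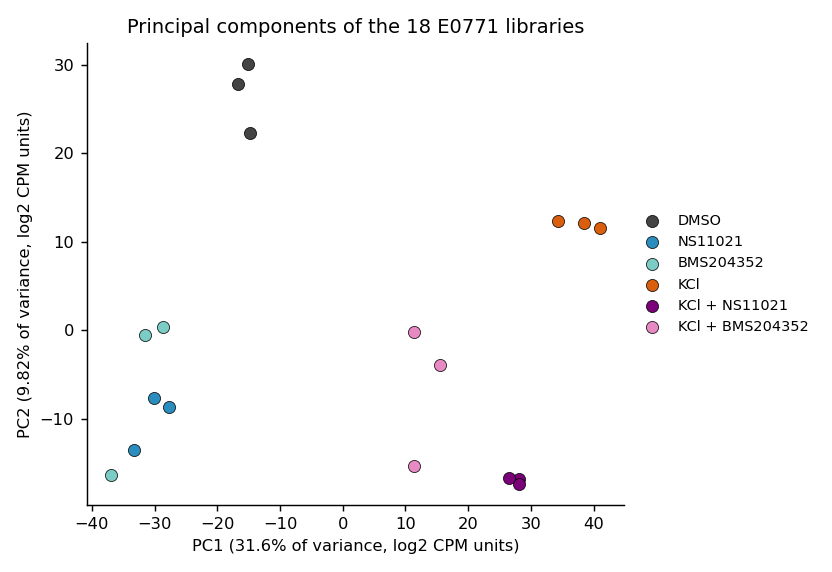
Principal components of log2 CPM in the 18 E0771 libraries, PC1 on the x axis (31.6% of variance) and PC2 on the y axis (9.82%), 1 point per library and 1 colour per treatment. The 3 KCl+NS11021 libraries sit at 26.6 to 28.2 on PC1 and −17.3 to −16.7 on PC2, apart from the 3 DMSO libraries.

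The double treatment changed a large part of the transcriptome, and by modest folds for most genes. Genes of the hypertonic response and an actin-oxidising enzyme rose, and genes of ribosome assembly, cholesterol synthesis and DNA replication fell together. By edgeR's quasi-likelihood test with Benjamini-Hochberg adjustment (adjusted p below 0.05), 2615 genes were higher and 2543 lower in KCl+NS11021 than in DMSO, 38.6% of those tested, 19.6% higher and 19% lower. The median absolute log2 fold change of these genes was 0.33. At least 2-fold changes were mostly rises, 434 against 55. The 3 and 3 libraries did not overlap for 6848 genes (51.3%), against 50.7% of genes for KCl and DMSO.

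Among genes whose log2 CPM averaged at least 2, the largest rise was that of Ptgds, which makes prostaglandin D2. Ptgds (chr2:25466709-25470046, GRCm38, minus strand) was at 1.51, 2.67 and 1.04 CPM in the DMSO libraries and at 42.4, 39.8 and 34.2 in the KCl+NS11021 libraries. Every treated library was far above every DMSO library, a log2 fold change of 4.48 ± 0.22 (SE, n = 3 and 3, adjusted p = 8.29e-12). KCl alone gave 30, 34.7 and 24.2 CPM, and adding NS11021 did not shift Ptgds past the threshold (0.39 ± 0.17, adjusted p = 0.124). Mical2 (chr7:112225856-112413106, GRCm38, plus strand), which oxidises and disassembles actin filaments and is known to raise MRTF-SRF activity by doing so in the nucleus, was the most evenly raised of the leading genes. It stood at 31.7, 30.3 and 32.4 CPM in DMSO and 159, 173 and 163 in KCl+NS11021, with no overlap (2.41 ± 0.07, adjusted p = 5.81e-20). The KCl libraries of Mical2 were at 143, 145 and 133 CPM, below all KCl+NS11021 libraries, and NS11021 added 0.24 ± 0.07 (adjusted p = 0.0119).

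The other leading rises were of varied function. Gprc5b, an orphan receptor, rose by 3.63 ± 0.21, and 13.1% of its exon bases are shared with the antisense gene Iqck. The surface protein gene Ly6c1 rose by 2.76 ± 0.20 and Mgat3, which adds the bisecting sugar to N-glycans, by 2.73 ± 0.20. Hsd11b2, which inactivates glucocorticoids and is a classic gene of salt-handling epithelium, rose from 1.44 to 1.98 CPM to 7.34 to 9.92 (2.32 ± 0.24). Mrgprf rose by 2.31 ± 0.23, Slc45a3 by 2.26 ± 0.19, the sciellin gene Scel by 2.19 ± 0.19 and Ccn5, a matricellular protein, by 2.17 ± 0.15. For none of these 8 genes did the KCl+NS11021 and DMSO libraries overlap, which the choice of leading genes required.

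The largest fall among such genes was that of Edn2, which encodes the vasoconstrictor peptide endothelin 2. Edn2 was at 9.27, 6.56 and 9.11 CPM in DMSO and at 1.33, 2.24 and 1.98 in KCl+NS11021, with no overlap (−2.16 ± 0.30, adjusted p = 9.35e-06). Mboat1, a phospholipid acyltransferase, fell by 1.58 ± 0.19 on the log2 scale, and the vitamin D receptor gene Vdr by 1.27 ± 0.15. Col1a1, the main chain of type I collagen, went from 74.4, 64.6 and 77.8 CPM to 28.4, 31 and 30.9. All 3 treated libraries of Col1a1 were below all DMSO libraries (−1.25 ± 0.13, adjusted p = 1.03e-06). Slc30a1, the zinc exporter of the plasma membrane, fell by 1.20 ± 0.16, Lrrc15 by 1.12 ± 0.19, the sodium-iodide symporter gene Slc5a5 by 1.09 ± 0.21, the lipid transporter gene Mfsd2a by 1.05 ± 0.15 and the transcription factor gene Klf2 by 1.04 ± 0.13. Dnmt3b, a DNA methyltransferase that sets new methylation, fell and was the one of these 10 falls that NS11021 moved back: it stood at 17.6, 17.8 and 18.6 CPM in DMSO, 5.61, 4.13 and 6.27 in KCl and 6.85, 9.02 and 7.96 in KCl+NS11021. Dnmt3b stayed below every DMSO library (−1.17 ± 0.13, adjusted p = 9.2e-09) while exceeding every KCl library (0.57 ± 0.13, adjusted p = 0.00363).

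**Figure D2:**
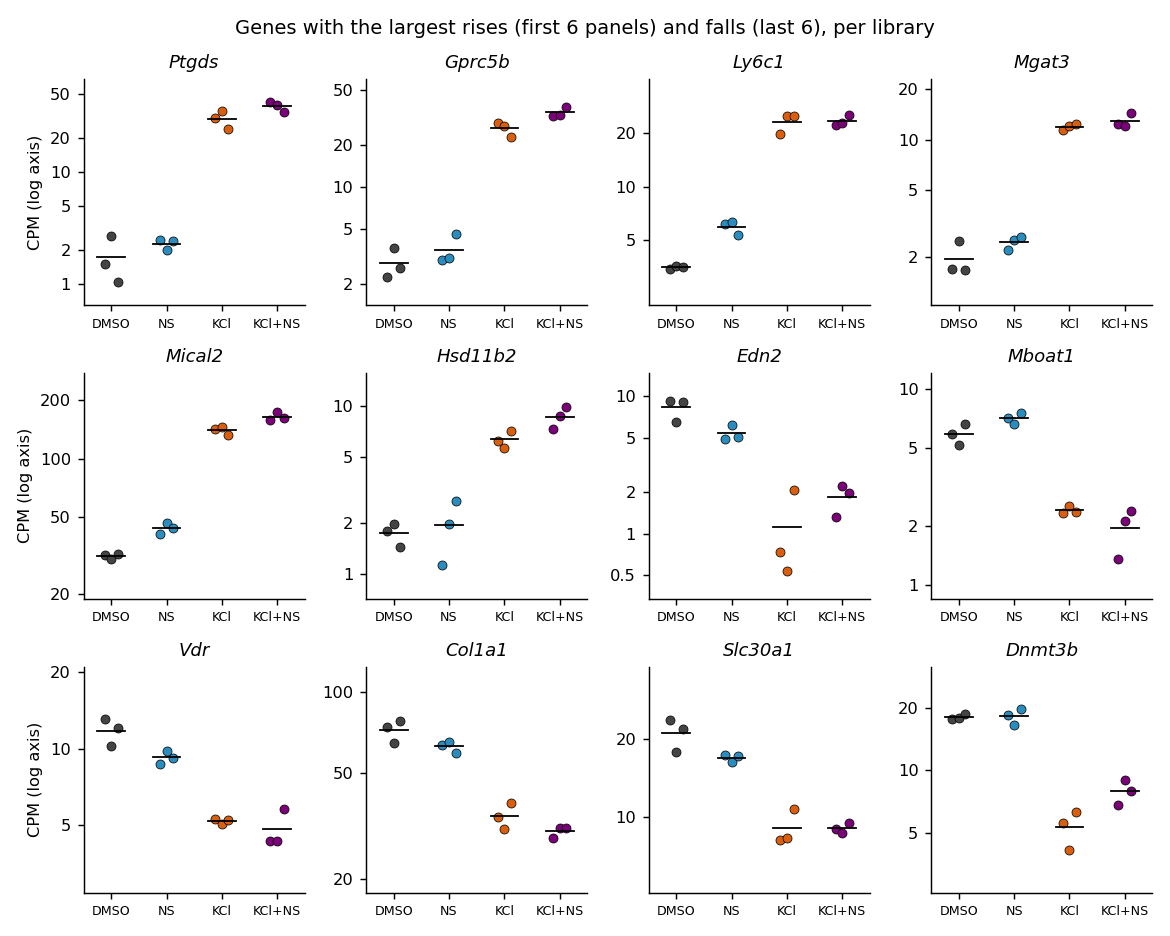
CPM on a log y axis in each of the 3 libraries of DMSO, NS11021 (NS), KCl and KCl+NS11021 for 6 of the largest rises and 6 of the largest falls of KCl+NS11021 against DMSO, with group means as lines. Ptgds is at 1.04 to 2.67 CPM in DMSO and 34.2 to 42.4 in KCl+NS11021, and Dnmt3b is at 17.6 to 18.6 in DMSO, 4.13 to 6.27 in KCl and 6.85 to 9.02 in KCl+NS11021.

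KCl against DMSO called 4860 genes (36.4%; 17.8% higher and 18.6% lower), NS11021 against DMSO 3515 (26.3%; 12.8% higher and 13.5% lower) and KCl+NS11021 against KCl 2303 (17.2%; 9.59% higher and 7.65% lower). Libraries of KCl+NS11021 and KCl did not overlap for 37.2% of genes. Hypertonic response genes were higher both with KCl alone and with NS11021 added. Of 16 tested members of the hypertonic response list, 15 rose and 0 fell, with a median log2 fold change of 1.06 against 0.00 over all genes. KCl alone raised 15 of them too, at a median of 1.03. With both treatments, 19.6% of all genes were called higher than in DMSO. Aqp1, a water channel, was at 13.6, 11.8 and 12.5 CPM in DMSO, 34.4, 36.4 and 32.6 in KCl and 45.8, 43.1 and 45.6 in KCl+NS11021. The 3 groups do not overlap, and Aqp1 moved further from DMSO with NS11021 (1.85 ± 0.10 against DMSO, adjusted p = 1.15e-15; 0.38 ± 0.09 against KCl, adjusted p = 0.00344). Hspa4l, a chaperone of the Hsp110 family induced by salt stress, was at 64.8 to 74.7 CPM in DMSO and 147 to 162 in KCl+NS11021 (1.18 ± 0.07). The taurine carrier gene Slc6a6 rose by 0.45 ± 0.04. Slc38a2, a carrier of small neutral amino acids, rose from 375, 415 and 414 CPM to 641, 626 and 644, and it was the 1 member that moved back, having been at 750, 770 and 730 in KCl (−0.23 ± 0.05 against KCl, adjusted p = 0.00183). Without the 2 libraries that stand apart, 2 members moved back.

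Of 15 sodium pump and cation-chloride cotransporter genes, 8 rose and 2 fell, against 9 and 2 with KCl alone. The sodium-potassium pump exports sodium and imports potassium. Slc12a7, a potassium-chloride exporter, rose by 0.46 ± 0.05. Stk39, the SPAK kinase that controls cation-chloride cotransport, fell with KCl and came part of the way back: 60.1, 68.5 and 68.5 CPM in DMSO, 36.5, 37.4 and 40 in KCl and 46.2, 46.6 and 49.3 in KCl+NS11021. No groups of Stk39 overlap (−0.46 ± 0.06 against DMSO, adjusted p = 4.22e-07; 0.32 ± 0.06 against KCl, adjusted p = 0.000495). Of 7 potassium channel genes tested, 2 rose, among them Kcnh2 by 0.69 ± 0.11, and 2 fell (Kcnq5 by 0.63 ± 0.14 and the auxiliary subunit gene Kcnab2 by 0.18 ± 0.05, a call lost without DMSO replicate 3, at −0.14). Over all genes tested, 19.6% were called higher and 19% lower, so so few channel genes show no shift of the list.

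Ribosome assembly genes were lower both with KCl alone and with NS11021 added. Of 32 members, 0 rose and 30 fell in KCl+NS11021 (median −0.34), and 30 fell in KCl alone (median −0.31). Called lower among all genes were 19% with KCl+NS11021 and 18.6% with KCl. Ncl, which encodes the nucleolar protein nucleolin, went from 2289, 2143 and 2302 CPM in DMSO to 1680, 1675 and 1665 in KCl+NS11021, against 1654, 1617 and 1697 in KCl. The KCl+NS11021 libraries of Ncl lay below all DMSO libraries and within the KCl range (−0.41 ± 0.04, adjusted p = 3.4e-09). Pno1 (−0.65 ± 0.06), Rrp9 (−0.51 ± 0.05) and Ddx21 (−0.34 ± 0.04), which act in small subunit assembly and rRNA processing, fell with it. Of 20 cytosolic aminoacyl-tRNA synthetases, which charge tRNAs, 13 fell and 2 rose. Hars fell from 163 to 183 CPM to 116 to 121 (−0.54 ± 0.05), and 3 of the 15 synthetase genes lowered by KCl moved back, among them Yars (0.15 ± 0.04 against KCl, adjusted p = 0.0163), near the 21.3% of all KCl-lowered genes that did. That count went from 0 to 6 over the settings tried, at 6 without the 2 libraries that stand apart.

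Of the 4860 genes that KCl changed, 920 moved back toward DMSO with NS11021, meaning that KCl+NS11021 against KCl was called in the opposite direction. They were 18.9% of the KCl-changed genes and 6.89% of all genes tested. Genes of amino acid synthesis that KCl lowered, and glycolytic and hypoxia genes that KCl raised, were among them. The 920 comprised 529 genes lowered by KCl (21.3% of those lowered) and 391 raised by KCl (16.4% of those raised). In another 266 genes (5.47%, or 1.99% of all tested), NS11021 moved expression further from DMSO, and for 3674 (75.6%) it made no called difference. Without the 2 libraries that stand apart, 1315 genes moved back and 495 moved further. Without KCl replicate 1 or 2 the genes that moved back were 612 and 586, and those that moved further were 150 and 157, against 138 without KCl replicate 3 and 171 without KCl+NS11021 replicate 3. Both contrasts contain the KCl libraries, so scatter in those libraries pushes the 2 changes in opposite directions.

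The 920 genes ended at different distances from DMSO. Against DMSO, 613 of the 920 genes (66.6%) were not called in KCl+NS11021, 266 (28.9%) were still called on the KCl side and 41 (4.46%) were called on the other side of DMSO. A gene that was not called need not have returned in full, since the median standard error over all genes was 0.09. A median of 19.2% of the KCl log2 change was left, with quartiles from −9.96% to 41.7%. The choice of these genes favours a small share, since both contrasts that define them hold the KCl libraries. For the 391 genes raised by KCl, the median log2 change from DMSO was 0.31 with KCl and 0.05 with KCl+NS11021, and for the 529 lowered it was −0.42 and −0.07. In most of these genes NS11021 alone moved expression the same way: 641 of 920 were called for NS11021 against DMSO in the direction of their return, a contrast that shares no library with KCl+NS11021 against KCl but shares DMSO with the KCl contrast. Against DMSO, NS11021 alone had a median of −0.24 in the genes raised by KCl and 0.26 in those lowered. The shift that NS11021 made in KCl reached 1.5-fold in 102 of the 920 genes.

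The largest returns among genes lowered by KCl were those of A4galt, Disp2, Cd68, Creb5, Zfp580, Pycr1, Nptx1 and Aatk, with shifts of 1.02 to 1.63 between KCl and KCl+NS11021. Nptx1 (chr11:119538719-119547753, GRCm38, minus strand), a secreted neuronal pentraxin, gave the fullest return: 47.7, 44.7 and 49 CPM in DMSO, 22.3, 19 and 26.9 in KCl and 45.5, 44.1 and 50.3 in KCl+NS11021. The KCl+NS11021 and DMSO libraries of Nptx1 overlap and all exceed the KCl libraries (−0.00 ± 0.09 against DMSO; 1.03 ± 0.10 against KCl, adjusted p = 3.13e-07). NS11021 alone raised Nptx1 to 80.1, 75.1 and 78 CPM. A4galt (chr15:83226722-83251774, GRCm38, minus strand), which makes the glycolipid Gb3, passed DMSO: 2.68, 3.43 and 3.75 CPM in DMSO, 1.77, 1.89 and 1.7 in KCl and 6.1, 5.89 and 4.56 in KCl+NS11021. Its 3 groups do not overlap (0.76 ± 0.19 against DMSO, adjusted p = 0.00141; 1.63 ± 0.20 against KCl, adjusted p = 1.02e-06). The endosomal glycoprotein gene Cd68 likewise went from 4.83 to 5.32 CPM in DMSO to 2.6 to 3.65 in KCl and 6.91 to 7.99 in KCl+NS11021, while NS11021 alone gave 14.2 to 15.5. Disp2, Zfp580 and the kinase gene Aatk were also called above DMSO, and Creb5, a CREB-family transcription factor gene, was not (0.25 ± 0.20).

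Cacna1a (chr8:84388440-84640246, GRCm38, plus strand) led the genes raised by KCl that moved back. It encodes the pore of the P/Q-type voltage-gated calcium channel and stood at 24.4, 24.6 and 25.1 CPM in DMSO, 50.2, 47.7 and 46 in KCl and 26.6, 24.7 and 26.8 in KCl+NS11021. The KCl libraries of Cacna1a are all above the other 6, while KCl+NS11021 overlaps DMSO (0.09 ± 0.18 against DMSO; −0.88 ± 0.17 against KCl, adjusted p = 0.00295). NS11021 alone lowered it to 15.5, 11.1 and 14.4 CPM. Fam13b followed, at 15.5 to 16.8 CPM in DMSO, 24.2 to 28.9 in KCl and 14.9 to 16 in KCl+NS11021 (−0.78 ± 0.10 against KCl). Igf2bp1, an mRNA-binding protein gene, went from 16.9 to 21.5 CPM in DMSO to 33.9 to 36.6 in KCl and 19.6 to 24.3 in KCl+NS11021 (−0.68 ± 0.17 against KCl). Camsap3, which protects microtubule minus ends, returned only in part, with KCl+NS11021 still 0.93 ± 0.18 above DMSO. Dhrs4 was called below DMSO at the end (−0.32 ± 0.13), and Ly9, Dok7 and the phosphatase gene Dusp8, with returns of −0.63 to −0.66 against KCl, were not called against DMSO.

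**Figure D3:**
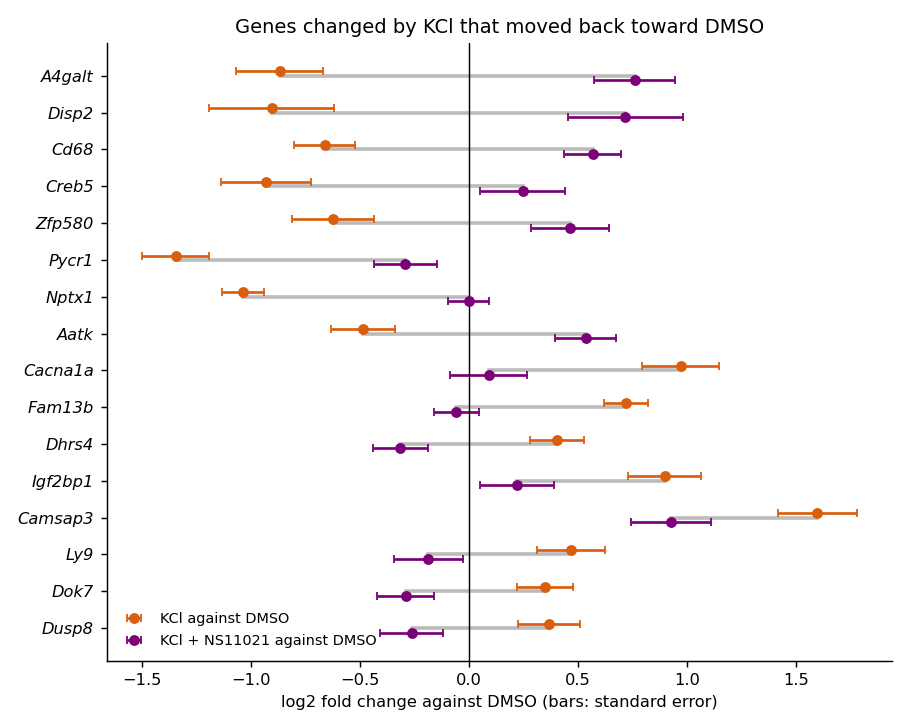
Log2 fold change against DMSO (x axis) with KCl and with KCl+NS11021 for the 8 largest returns in each direction (rows), with standard errors from the fit as bars. Nptx1 and Cacna1a end near 0 (−0.00 and 0.09), while A4galt ends at 0.76 on the other side of DMSO.

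Amino acid genes governed by the stress factor ATF4 were mostly lowered by KCl and raised by NS11021, and their median lay between the single treatments with both. KCl lowered 18 of 35 tested members and raised 4 (median −0.35), NS11021 raised 21 and lowered 1 (median 0.31), and KCl+NS11021 lowered 9 and raised 5 (median −0.09). Called lower and higher over all genes were 18.6% and 17.8% with KCl, 13.5% and 12.8% with NS11021 and 19% and 19.6% with both. Without the 2 libraries that stand apart KCl+NS11021 lowered 16 and raised 7, and without DMSO replicate 1 or 3 it lowered 6. Of the 22 changed by KCl, 8 moved back, against 18.9% of all KCl-changed genes, and 0 moved further. Without the 2 libraries that stand apart 21 members moved back, and 5 to 6 did when 1 DMSO, KCl or KCl+NS11021 library was left out. Pycr1, the mitochondrial enzyme of the last step of proline synthesis, was at 17.1, 16.1 and 15.9 CPM in DMSO, 6.56, 6.4 and 6.25 in KCl and 12.1, 11.7 and 15.8 in KCl+NS11021. Pycr1 with both treatments stayed below every DMSO library and above every KCl library, without passing against DMSO (−0.29 ± 0.14, adjusted p = 0.118; 1.05 ± 0.16 against KCl, adjusted p = 7.85e-05). Aldh18a1, earlier in the proline pathway, moved back by 0.29, Pck2 by 0.49, Mthfd2 of mitochondrial folate metabolism by 0.25, Chac1, which degrades glutathione, by 0.40 and the asparagine synthetase gene Asns by 0.21. Slc7a5, which pairs with Slc3a2 to carry large neutral amino acids, moved back by 0.12 and was still at −0.60 ± 0.04 against DMSO. Slc3a2 was at −0.51 ± 0.04 and was not called against KCl. Slc38a2, also counted in the hypertonic list, was the 1 member that moved back from above.

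ATF4 binds a composite element, CARE, with the core TGATGNAA. Among 27025 RefSeq promoters of the GRCm38.p6 build, each 250 bases before to 50 after the start, this core occurred on either strand in 4.06%, and in 9 of the 31 ATF4 list members with an entry. The promoter of Asns (chr6:7693160-7693459, GRCm38.p6, minus strand) is printed because the gene moved back and holds the core. It was chosen after its values were seen, and capitals mark the core, at −23 from the start. The promoters of Aldh18a1 and Slc38a2, which also moved back, hold no match, and neither do those of Slc3a2 and Shmt2.
Asns: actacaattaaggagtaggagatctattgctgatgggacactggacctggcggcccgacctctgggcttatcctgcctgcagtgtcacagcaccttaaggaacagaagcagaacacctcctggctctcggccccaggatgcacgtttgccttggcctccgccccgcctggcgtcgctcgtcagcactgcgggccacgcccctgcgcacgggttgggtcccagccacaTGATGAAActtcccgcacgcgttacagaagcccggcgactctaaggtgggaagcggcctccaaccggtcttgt
A match is a run of letters and shows no binding. TonE, the element bound by NFAT5, was searched by name in the same promoters. It occurred in 4.98% of all promoters and in 2 of 14 hypertonic list members with an entry. The promoters of Aqp1, Hspa4l and Slc38a2 hold no TonE match.

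Glycolytic and hypoxia genes went the other way. KCl raised 21 of 36 members and lowered 4 (median 0.18), and KCl+NS11021 raised 13 and lowered 5 (median 0.08). The shares of all genes called higher and lower were 17.8% and 18.6% with KCl and 19.6% and 19% with KCl+NS11021. The 5 falls were 2, 3 and 1 without DMSO replicate 1, DMSO replicate 3 and KCl+NS11021 replicate 3. Of the 25 changed by KCl, 15 moved back, against 18.9% of all KCl-changed genes. The 15 became 19 without the 2 libraries that stand apart, 10 without KCl replicate 1 or 2 and 8 without KCl+NS11021 replicate 3. Ldha, which turns pyruvate into lactate, was 0.33 above DMSO with KCl and −0.00 with both. Tpi1, Pgam1, Pgk1 and Eno1, enzymes of glycolysis, also moved back, with log2 shifts of −0.31, −0.30, −0.14 and −0.09 against KCl, to values against DMSO of −0.06, −0.01, −0.02 and 0.03. Pfkl passed to the other side (−0.12). Adm, Bnip3, Bnip3l and Egln1, classic hypoxia genes, moved back in part and were still called above DMSO, at 0.38, 0.39, 0.33 and 0.19. Hif1a, the oxygen-regulated subunit itself, was the 1 member that moved further, against 2 members without the 2 libraries that stand apart. It was at 251, 242 and 243 CPM in DMSO, 387, 385 and 357 in KCl and 448, 457 and 419 in KCl+NS11021. Its 3 groups do not overlap (0.86 ± 0.05 against DMSO, adjusted p = 1.41e-15; 0.23 ± 0.05 against KCl, adjusted p = 0.000537), and 8.11% of its exon bases are shared with other genes. The glucose carrier gene Slc2a1 rose by 0.79 ± 0.08 against DMSO and was not called against KCl (−0.05 ± 0.08).

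Genes of YAP and TEAD, factors that respond to cell spreading, and of their targets were split. KCl+NS11021 raised 8 of 19 and lowered 1, against 19.6% and 19% of all genes. KCl raised 11 and lowered 1, against 17.8% and 18.6%. Of the 12 changed by KCl, 6 moved back, against 18.9% of all KCl-changed genes. They were Amotl2, Ajuba, Lats2, Arhgef17 and Yap1, which KCl had raised, and Tead4, which it had lowered. Axl, a receptor kinase, rose from 508, 523 and 523 CPM to 740, 744 and 775 and moved further, as did Wwtr1, which encodes TAZ (0.43 ± 0.05). These 2 further moves were 0 without DMSO replicate 2, without KCl replicate 2 or 3 and without any 1 KCl+NS11021 library, and 1 without any other 1 DMSO or KCl library. Without the 2 libraries that stand apart, 9 members moved back and 3 moved further. Lats2, a kinase that restrains YAP, was 0.28 above DMSO with KCl and −0.19 with both.

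More sterol genes were called lower with the combination than with either single treatment. Of 25 cholesterol synthesis and uptake genes, 18 fell and 2 rose in KCl+NS11021 (median −0.34), while KCl lowered 5 and raised 2 (median −0.02) and NS11021 lowered 6 and raised 0. Lower calls over all genes were 19% with KCl+NS11021, 18.6% with KCl and 13.5% with NS11021. Against KCl, 14 members fell and 0 rose (median −0.34), beside 7.65% and 9.59% of all genes. Interaction was called for 0 of them, so the double treatment was not shown to differ from the sum of the single log2 changes. Cyp51, the lanosterol demethylase, was at 71.5, 67.2 and 68.3 CPM in DMSO, 58.4, 56.4 and 57.7 in KCl, 62.2, 59.2 and 57.4 in NS11021 and 40.3, 41.5 and 33.6 in KCl+NS11021. All 3 KCl+NS11021 libraries of Cyp51 were below the other 9 (−0.83 ± 0.10, adjusted p = 1.26e-06; −0.58 ± 0.10 against KCl, adjusted p = 0.000478). Sqle fell by 0.75 ± 0.08, Dhcr7 by 0.64 ± 0.09 and Hmgcs1, an early enzyme, by 0.61 ± 0.08. Against DMSO, Srebf2, which encodes the factor that drives these genes, was at −0.25 and was called. Fdft1 was one of the 2 members that rose (0.16 ± 0.06).

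The sterol element bound by SREBP2 was searched as TCACNCCA on either strand, a motif added after the values were seen. It occurred in 4.28% of all promoters and in 3 of 17 list members with an entry, but not in the promoters of Dhcr7 or Cyp51. Hmgcs1 (chr13:119690101-119690400, GRCm38.p6, plus strand), one of the genes lowered further with NS11021, holds it at −137 from the start, in capitals.
Hmgcs1: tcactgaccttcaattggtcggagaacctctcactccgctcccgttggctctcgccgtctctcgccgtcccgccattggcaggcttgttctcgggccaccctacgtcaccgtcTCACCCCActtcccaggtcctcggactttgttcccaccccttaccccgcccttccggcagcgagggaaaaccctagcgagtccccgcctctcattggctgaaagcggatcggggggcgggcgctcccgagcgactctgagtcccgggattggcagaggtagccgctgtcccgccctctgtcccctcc

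Cell cycle genes fell as well. Of 35 G1/S and DNA replication genes, 19 fell and 2 rose in KCl+NS11021 (median −0.21), while KCl lowered 5 and raised 9 and NS11021 alone lowered 18 and raised 0. Of 33 G2/M genes, 17 fell and 1 rose, while KCl lowered 3 and raised 5 and NS11021 alone lowered 6 and raised 1. Among all genes tested, KCl+NS11021 called 19% lower and 19.6% higher, KCl 18.6% and 17.8%, and NS11021 13.5% and 12.8%. The KCl and NS11021 counts of the G2/M list lie near or below these shares. Tyms, the thymidylate synthase of DNA synthesis, was at 45.9, 45.6 and 47.1 CPM in DMSO, 38.9, 41 and 41.9 in KCl and 29.6, 30.3 and 31.2 in KCl+NS11021. Its 3 groups do not overlap (−0.59 ± 0.08, adjusted p = 3.99e-07). Mcm10, of replication initiation, fell by 0.45 ± 0.06 and cyclin E2 (Ccne2) by 0.54 ± 0.08. Kif23, a kinesin of cytokinesis, went from 138, 143 and 138 CPM to 110, 112 and 110, and KCl alone left it at 142, 138 and 143. All 3 KCl+NS11021 libraries of Kif23 were below the KCl and DMSO libraries (−0.33 ± 0.04 against DMSO, adjusted p = 4.22e-07). E2f1, a factor of the G1/S transition, was one of the 2 that rose (0.47 ± 0.06).

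Lysosomal genes rose. Of 36 lysosome and V-ATPase genes, 22 rose and 1 fell (median 0.19), against 11 and 2 with KCl (median 0.06). NS11021 alone raised 14 and lowered 2 (median 0.11). Beside the lists of this paragraph, KCl+NS11021 called 19.6% of all genes higher and 19% lower. KCl called 17.8% and 18.6%, and NS11021 12.8% and 13.5%. Between KCl and KCl+NS11021, 15 lysosomal members rose and 0 fell, against 9.59% and 7.65% of all genes. These rises were 9 without KCl+NS11021 replicate 1, and 10 with 1 fall without KCl replicate 3. Grn, which encodes progranulin, was at 638, 675 and 629 CPM in DMSO, 855, 820 and 808 in KCl and 943, 911 and 959 in KCl+NS11021. The 3 groups of Grn do not overlap (0.55 ± 0.04, adjusted p = 6.63e-12), and it moved further with NS11021 (0.18 ± 0.04, adjusted p = 0.00231). The sphingolipid activator gene Psap (0.40 ± 0.03), the protease cathepsin D (Ctsd, 0.35 ± 0.03) and the galactosidase Glb1 (0.48 ± 0.05) did the same. Of 16 ERK feedback genes, 11 rose and 1 fell (median 0.28). KCl alone raised 4 and lowered 4 (median 0.12), and NS11021 alone raised 6 and lowered 0 (median 0.17). Against KCl, the double treatment gave 9 rises and 0 falls. These rises were 5 without KCl+NS11021 replicate 3 and 6 without KCl replicate 1 or 3. Dusp4, an ERK phosphatase, was at 111, 118 and 111 CPM in DMSO, 122, 119 and 126 in KCl and 165, 162 and 173 in KCl+NS11021, above all of both. It rose by 0.57 ± 0.05 (adjusted p = 5.2e-10), while NS11021 alone gave 168 to 183 CPM. Dusp1 rose from 16.1 to 17.3 CPM to 69.3 to 74.7, and KCl alone gave 78.8 to 95.3.

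Among genes that moved further up, the largest shifts were of Ccn5, Scel, Sp140 and Serpinf1. Ccn5 was at 3.51, 3.08 and 2.88 CPM in DMSO, 7.72, 6.67 and 7.45 in KCl and 12.6, 15.7 and 13.8 in KCl+NS11021, 3 groups without overlap (0.95 ± 0.14 against KCl, adjusted p = 2.07e-05). Scel shifted by 0.94 ± 0.18 against KCl, Sp140, a nuclear body protein gene, by 0.72 ± 0.16 and Serpinf1, which encodes the secreted factor PEDF, by 0.71 ± 0.13. Besides Cyp51, those that moved further down were the phosphatase gene Cdkn3 (−0.42 ± 0.09 against KCl), Ubtd2 (−0.40 ± 0.08) and the adaptor gene Tirap (−0.36 ± 0.08).

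**Figure D4:**
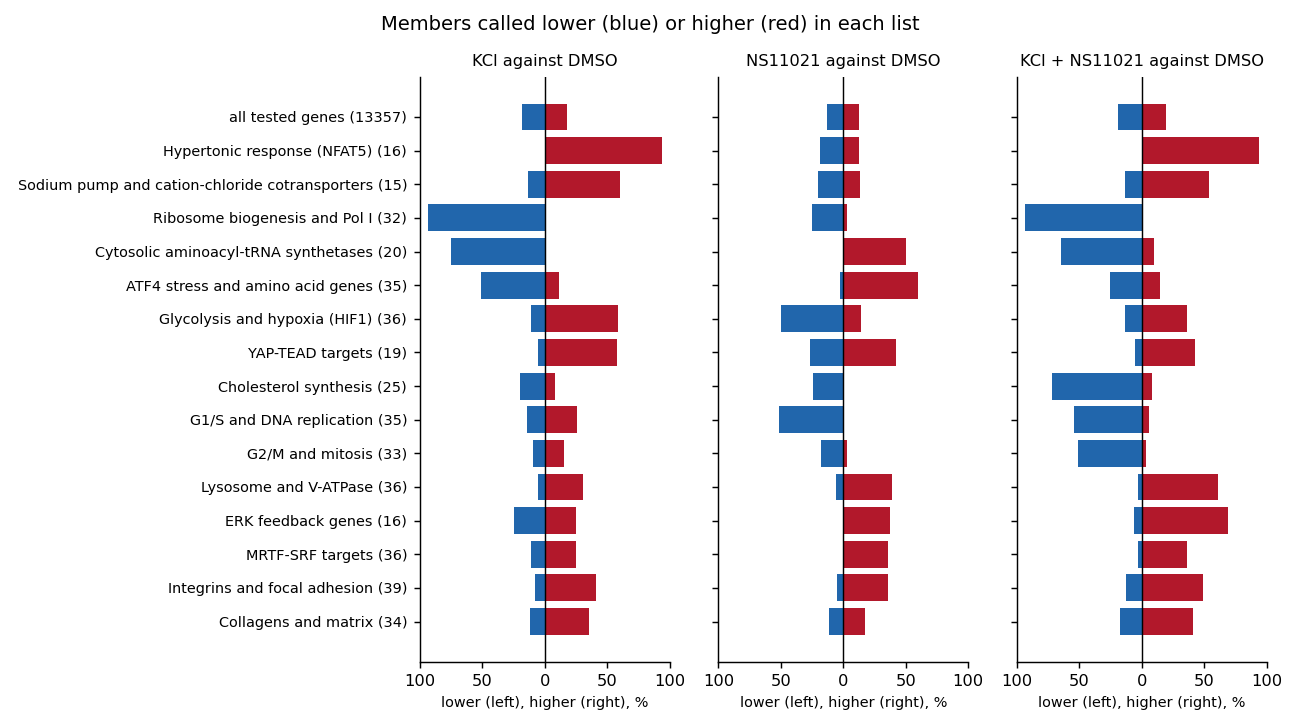
Percent of tested members called lower (blue, left) or higher (red, right) against DMSO for KCl, NS11021 and KCl+NS11021, for all genes and 15 gene lists, with the number tested in parentheses. Hypertonic genes (15 of 16 higher) and ribosome assembly genes (30 of 32 lower) look alike in the KCl and KCl+NS11021 panels, while 18 of 25 cholesterol genes are lower in KCl+NS11021, against 5 with KCl and 6 with NS11021.

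The actin and SRF genes that the series is about changed unevenly. Of 36 MRTF-SRF targets, 13 rose and 1 fell in KCl+NS11021 (median 0.14), against 9 and 4 with KCl (median 0.02). NS11021 alone gave nearly the same counts as the double treatment, 13 raised and 0 lowered (median 0.14). Higher and lower calls over all genes were 19.6% and 19% with KCl+NS11021, 17.8% and 18.6% with KCl and 12.8% and 13.5% with NS11021. Without the 2 libraries that stand apart 15 rose and 5 fell in KCl+NS11021. Of the 13 changed by KCl, 0 moved back and 1, the integrin gene Itga5, moved further (0.41 ± 0.05 against DMSO); without the 2 libraries that stand apart 6 moved back, and without KCl replicate 3 it was 2. Mrtfa was at 57.4, 65.8 and 62.4 CPM in DMSO, 78.1, 84.1 and 72.9 in KCl and 76.9, 78.4 and 78.9 in KCl+NS11021. Both KCl groups lie above DMSO, and Mrtfa differed little between them (0.35 ± 0.07 against DMSO, adjusted p = 0.000103; −0.00 ± 0.07 against KCl). Acta2, smooth muscle actin, was at 86.7, 89.7 and 87.7 CPM in DMSO, 161, 151 and 153 in NS11021, 108, 111 and 125 in KCl and 144, 153 and 159 in KCl+NS11021. It rose by 0.80 ± 0.13 (adjusted p = 0.000336) with no overlap, and against KCl it missed the threshold (0.41 ± 0.13, adjusted p = 0.051). Myl9, a regulatory myosin light chain, was at 1.32, 2.03 and 2.48 CPM in DMSO and 4.09, 4.03 and 3.62 in KCl+NS11021 (1.03 ± 0.24, adjusted p = 0.000774). Filip1l (0.92 ± 0.13), the myosin light chain kinase gene Mylk (1.47 ± 0.24) and caldesmon (Cald1, 0.36 ± 0.05) also rose.

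Other index genes did not pass. Srf was at 137, 132 and 139 CPM in DMSO and 144, 127 and 133 in KCl+NS11021, overlapping ranges (−0.00 ± 0.06, adjusted p = 0.987). Actb was at 5073, 5000 and 4918 CPM against 4937, 4902 and 4754 (−0.03 ± 0.04). Vcl was at 0.12 ± 0.06, with 25.5% of its exon bases shared with the antisense gene Ap3m1, Mrtfb at 0.11 ± 0.06 and Ccn2 at −0.06 ± 0.23, with 23.2% shared with Gm15270. Ccn1, a target shared by SRF and YAP, was at 31.2, 33.2 and 30.7 CPM in DMSO and 24.7, 24.9 and 18.4 in KCl+NS11021, whereas NS11021 alone gave 52.1, 52.4 and 43.3. The DMSO and KCl+NS11021 ranges of Ccn1 do not overlap, but it missed the threshold (−0.47 ± 0.18, adjusted p = 0.056). It was called, still at −0.47, without the 2 libraries that stand apart.

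SRF binds the CArG box, searched by name as a match to its consensus on either strand. A match occurred in 1.57% of all promoters and in 8 of 29 MRTF-SRF list members with an entry. Itga5, Cald1, Filip1l and Mylk, the list members with the smallest adjusted p, hold none. Myl9 (chr2:156775214-156775513, GRCm38.p6, plus strand) and Fhl2, a LIM-domain cofactor gene that rose by 0.35 (chr1:43196712-43197011, minus strand), hold one at −161 and −96 from the start, in capitals, and were chosen after their values were seen.
Myl9: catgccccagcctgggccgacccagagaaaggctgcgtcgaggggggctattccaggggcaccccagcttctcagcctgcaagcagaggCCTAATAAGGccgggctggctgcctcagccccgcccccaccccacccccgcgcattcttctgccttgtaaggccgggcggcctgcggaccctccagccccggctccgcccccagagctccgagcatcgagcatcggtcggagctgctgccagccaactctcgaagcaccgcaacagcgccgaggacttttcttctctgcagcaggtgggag
Fhl2: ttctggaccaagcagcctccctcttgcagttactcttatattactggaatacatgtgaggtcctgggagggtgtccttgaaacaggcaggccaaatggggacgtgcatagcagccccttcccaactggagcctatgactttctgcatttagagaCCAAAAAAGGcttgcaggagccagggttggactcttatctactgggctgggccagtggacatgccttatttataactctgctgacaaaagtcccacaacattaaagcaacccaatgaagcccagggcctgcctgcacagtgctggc

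Adhesion and matrix genes rose more often than they fell, 19 against 5 of 39 for integrins and focal adhesion and 14 against 6 of 34 for collagens and matrix. These counts, and those of the calcium genes below, stand beside 19.6% of all genes called higher and 19% called lower. The 5 integrin list falls were 3 without DMSO replicate 1 or KCl+NS11021 replicate 1. Vasp, which extends actin filaments, rose by 0.51 ± 0.04 and the integrin gene Itgav by 0.51 ± 0.05, while the GTPase gene Rhob fell by 0.50 ± 0.04. Col18a1 rose by 0.68 ± 0.04, whereas Col7a1 fell by 0.66 ± 0.06, as Col1a1 did. S100a4, a calcium-binding protein tied to motility, was at 96.8, 101 and 109 CPM in DMSO and 340, 396 and 399 in KCl+NS11021 (1.90 ± 0.15). Of 29 calcium entry and handling genes 9 rose and 3 fell; Orai2, a calcium channel subunit, rose by 0.73 ± 0.07.

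Further lists showed mixed changes, to be read against the 19.6% of all genes called higher and the 19% called lower. Of 22 ER chaperone genes 11 fell and 2 rose, and Hspa5, the main ER chaperone BiP, went from 798, 806 and 811 CPM to 611, 663 and 665, while KCl alone left it at 782, 806 and 799 (−0.30 ± 0.04, adjusted p = 3.31e-07). Of 37 nuclear-encoded respiratory subunits 15 fell and 4 rose (2, 1 and 2 without DMSO replicate 1, DMSO replicate 3 and KCl+NS11021 replicate 2), and of 13 mitochondrially encoded transcripts 0 were called (median 0.11). Of 20 cytosolic heat shock genes 7 rose and 8 fell. Cryab, a small heat shock protein gene, was at 23.5, 24.5 and 24.7 CPM in DMSO, 58.7, 62.4 and 60.1 in KCl and 40.8, 39.6 and 38.3 in KCl+NS11021, a partial return with no overlap among the 3 groups (−0.61 ± 0.07 against KCl, adjusted p = 1.26e-06). The metallothionein gene Mt1 fell from 247, 242 and 239 CPM to 140, 134 and 138. Of 19 inflammatory NF-kB genes and chemokines 7 rose and 1 fell, with the chemokine gene Ccl2 at 1.35 ± 0.12 and Tnfaip2 at 0.70 ± 0.04. Of 26 p53 targets 6 rose and 8 fell (5 without DMSO replicate 3). Of 36 interferon and antigen presentation genes 7 rose and 3 fell, a share of rises near that of all genes. Of 24 immediate early genes 4 rose and 7 fell, with Ier3 at 80.3, 84.4 and 77.3 CPM in DMSO and 313, 283 and 287 in KCl+NS11021 (1.88 ± 0.06).

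Whether KCl acted alike with and without NS11021 was tested as an interaction, the KCl+NS11021 minus NS11021 change less the KCl minus DMSO change. Few genes passed: 29 of 13357 (0.217%), 26 with a positive (0.195%) and 3 with a negative difference (0.0225%), and 1276 had an unadjusted p below 0.05. The 2 KCl contrasts, which share no library, called 4860 genes without NS11021 and 5343 with it (40%; 20.4% higher and 19.6% lower), and had a Pearson r of 0.669 across genes with a slope of 0.668, a description since genes are not independent replicates and low genes add scatter. The count depends on the spread. It was 237 without the 2 libraries that stand apart (132 positive and 105 negative), and leaving out a library gave 12, 19 and 10 for DMSO replicates 1, 2 and 3, 16, 10 and 23 for NS11021, 12, 6 and 14 for KCl and 18, 11 and 13 for KCl+NS11021.

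Txnip, an arrestin that restrains glucose uptake and follows glucose supply, had the largest interaction, 1.83 on the log2 scale (adjusted p = 0.000525). It was at 7.88, 7.94 and 7.93 CPM in DMSO, 1.41, 1.57 and 1.65 in NS11021, 6.24, 6.55 and 6.06 in KCl and 5.63, 4 and 3.47 in KCl+NS11021. NS11021 thus lowered Txnip by 2.35 ± 0.19 without KCl and by 0.52 ± 0.17 with it, and 19.4% of its exon bases are shared with the antisense gene Gm15441. Wsb1, a ubiquitin ligase adaptor gene, was at 113, 115 and 111 CPM in DMSO, 79.9, 63 and 80.4 in NS11021, 105, 101 and 100 in KCl and 106, 98.6 and 102 in KCl+NS11021. Only the NS11021 libraries of Wsb1 stood low (interaction 0.61). Ampd3, an AMP deaminase gene, was at 25, 21.5 and 21.8 CPM in DMSO, 33.7 to 34.5 in NS11021, 88 to 107 in KCl and 91.9 to 99.5 in KCl+NS11021, so that NS11021 raised it without KCl and left it level with KCl (interaction −0.58). The connexin gene Gja4 (0.85), the mTORC2 subunit gene Prr5 (0.79) and the actin capping gene Capg (−0.27) were also called, and each lost its call when single libraries were left out.

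**Figure D5:**
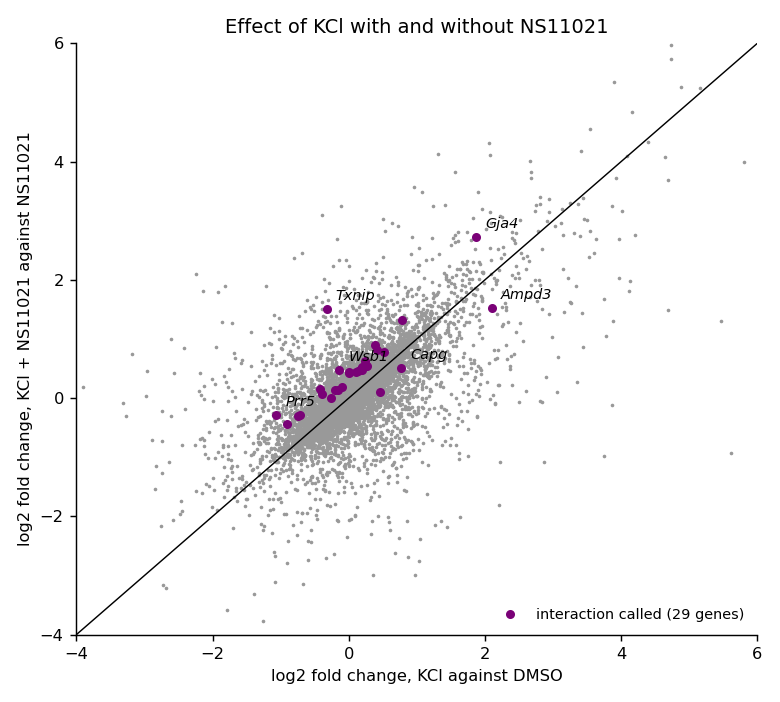
Log2 fold change of KCl against DMSO (x axis) and of KCl+NS11021 against NS11021 (y axis), 1 point per gene, with the line of equality; 28 genes lie outside the plotted range of −4 to 6. The 29 genes with a called interaction are marked, with Txnip above the line and Ampd3 below it.

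In AT-3, a mouse breast cancer line from an MMTV-PyMT mammary tumour treated in the same way, KCl+NS11021 against DMSO called 743 of 14772 genes (5.03%), 540 higher (3.66%) and 203 lower (1.37%), and KCl+NS11021 against KCl called 3 (0.0203%). The response to the double treatment differed between the lines, tested in a fit of all 36 libraries, for 1643 of 15969 genes (10.3%), 758 with a more positive change in E0771 (4.75%) and 885 with a more negative one (5.54%). The split turned to 835 and 759 with DESeq2 size factors, and without E0771 DMSO replicate 1 the count was 1094. Mical2 rose by 2.41 ± 0.10 in E0771 and was at −0.11 ± 0.10 in AT-3, a difference of 2.51 ± 0.14 (adjusted p = 3.73e-14). Ccn5 differed by 1.89 ± 0.15 and Dnmt3b by −0.90 ± 0.22. Ldha, which returned to DMSO in E0771, rose by 0.38 ± 0.07 in AT-3, a difference of −0.39 ± 0.10. The change of Mrtfa did not differ past the threshold (0.35 ± 0.09 in E0771, 0.45 ± 0.09 in AT-3). These 5 genes were chosen after their values were seen.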

How the data were processed

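STAR, featureCounts and GRCm38 were used by the authors, per the submitters' processing notes; the sources used here give no versions, strand setting or annotation. The deposited table holds raw counts for 32287 gene IDs. The 2 IDs that are not mouse, with 6 counts, were left out; 127 IDs without a symbol held 0.0415% of counts. Overlapping and antisense genes may share reads. Among counts of 1 to 10, 84.5% were even.

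CPM is counts per M of library total. Genes passing filterByExpr (minimum count 10, total 15) entered edgeR 4.0.16 (R 4.3.3), with trimmed-mean normalization (factors 0.99 to 1.01), robust quasi-likelihood fits of the 18 E0771 libraries and Benjamini-Hochberg adjustment at 0.05; the line difference used all 36. The common dispersion was 0.005. Values after ± are standard errors of log2 fold changes. Floors of 3 counts cover counting error only and treat counts as independent. Alternatives included DESeq2 1.42.0, other filters and left-out libraries. Tests were checked on simulated data. Members, lists and alternatives were chosen with earlier results of these data known; alternatives for list counts were added later. The genes named followed a rule: the index genes, the 10 largest rises and falls against DMSO among non-overlapping genes whose log2 CPM averaged at least 2, the 8 largest returns in each direction, the 4 largest further moves, 4 interactions and 3 line differences each way, and up to 4 members of each list by adjusted p; members named beyond it were chosen after their values were seen. Fewer are named where space is short. A few genes meeting it are not reported here. Positions and exon sharing are from GENCODE vM21.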

Additional observations from a re-analysis of the deposited data

Results flagged for a closer look

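A difference between groups, tested directly, marked out 29 genes for the interaction of KCl and NS11021 and 1643 genes for the difference between E0771 and AT-3 in the response to KCl+NS11021. Among the interactions, Txnip (1.83), Gja4 (0.85), Prr5 (0.79), Wsb1 (0.61), Ampd3 (−0.58) and Capg (−0.27) were named by the rule.

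Large line differences came mostly from genes nearly silent in one line. The limit on average log2 CPM was taken over the 36 libraries, so such genes passed it through the line where they are high. Fxyd2, which encodes the gamma subunit of the sodium pump, had 0, 0 and 0 counts in E0771 DMSO and 184, 112 and 148 in E0771 KCl+NS11021. Pooled, that was 158-fold over a floor of 3 counts in the group. AT-3 had 750, 950 and 995 and then 1950, 1750 and 1689 counts (fitted line difference 9.26, which is no bound). Folds over the floor treat counts as independent, whereas most low counts were even, so they are no lower bounds either. Tmod2, which caps actin filaments, had 0 counts in E0771 DMSO and 42, 6 and 12 in KCl+NS11021. Pooled, that was 21.3-fold over the floor, carried mostly by replicate 1. AT-3 had 1632, 1662 and 1868 and then 1202, 1100 and 1298 counts (7.90). Ptgds had 6, 4 and 4 counts in AT-3 DMSO and 2, 0 and 0 in AT-3 KCl+NS11021 (6.93). Gdap1l1 had 0 counts in AT-3 DMSO and 14, 12 and 17 in AT-3 KCl+NS11021, 15.8-fold over the floor when pooled (−6.17).

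Maged2 (−4.56) had 0, 2 and 6 counts in E0771 DMSO and 0 in E0771 KCl+NS11021, and its call was lost without E0771 DMSO replicate 3 (−3.16) and without other single libraries. Groups of 3 were not formally screened for outlying samples, and the 2 BMS libraries that stand apart were singled out with the data in view.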

How the results depend on the processing

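The counts of genes higher (2191 to 2642 when 1 library was left out) and lower (2101 to 2565) in KCl+NS11021 than in DMSO, and of genes changed by KCl (4045 to 4854), NS11021 (2553 to 3447) and KCl+NS11021 against KCl (1576 to 2316), stayed within 1.5 times the reported count under every alternative run. In a fit restricted to the groups compared, 1434 genes moved back, 579 moved further and 235 had a called interaction. Without the BMS204352 and KCl+BMS204352 libraries numbered 3, 495 moved further and 237 had a called interaction. The interaction count was 96 with DESeq2's Wald test (69 positive, 27 negative), 122 with no filter on low counts and 28 with DESeq2 size factors. When 1 library was left out, 586 to 930 genes moved back, 138 to 264 moved further, 6 to 23 had a called interaction and 1094 to 1559 differed between lines. The cause of these shifts was not tested.

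The main fit did not treat replicate numbers as pairs. Deviations of same-numbered DMSO and KCl+NS11021 libraries correlated at 0.0386, 0.00859 and −0.000771, and those of KCl and KCl+NS11021 at 0.0278, 0.0274 and 0.0251. Libraries with different numbers were not compared, so these values do not settle whether the numbers pair the samples. With the replicate number as a block, 2699 genes were higher and 2643 lower, 1038 moved back, 360 moved further and 53 had a called interaction; of MRTF-SRF targets 15 rose and 3 fell.

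Of 184 values of named genes, 173 kept their direction and call under all alternatives run. Most of these genes were named for a small adjusted p or a large change in these data, which favours a kept call. The count is therefore no measure of stability for other genes. Srf, near 0, turned sign with DESeq2's Wald test, DESeq2 size factors, halved counts, the groups compared alone and without the 2 BMS libraries (0.0014, 0.0015, 0.00022, 0.0019 and 0.00016), and ranged from −0.052 to 0.033 without single libraries; Ccn2 ranged from −0.15 to 0.048 without single libraries. Ccn1 and Vcl gained a call under some alternatives, and Gja4, Prr5, Capg, Elk4, Kcnab2 and Maged2 lost theirs under some. With 3 libraries a group, small changes of low genes could not be resolved.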
